A study of Homo sapiens with 6 samples.

Results

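The genes described here are 8 genes of the DNA replication fork: MCM2, MCM3, MCM4, MCM5, MCM6 and MCM7, the subunits of the replicative helicase, with MCM10, which helps to activate it, and PCNA, the sliding clamp. They were chosen by symbol, and all 8 were found among the 26364 gene symbols of the count table. The 6 libraries came from HEK293T, an established line from human embryonic kidney, and every one of them, controls included, had been treated with okadaic acid at 200 nM for 3 h. Of these, 3 libraries (p-UPF1 IP, called the IP from here on, replicates 3, 6 and 9) were made from RNA that an antibody to phosphorylated UPF1 pulled down, and 3 (replicates 1, 4 and 7) carry the title pre-IP. The pre-IP libraries are also labelled with rabbit IgG, so the labels leave unclear whether the control is input RNA or a mock pull-down, and their title is used as the group name. The labels do not tie replicates to separate cultures, so a p-value reflects how these libraries vary, possibly for technical reasons alone.

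UPF1 is an RNA helicase that becomes phosphorylated on mRNAs undergoing nonsense-mediated decay (NMD), and okadaic acid blocks the phosphatases that reverse this. The comparison asks which RNAs and decay fragments are found with phosphorylated UPF1 relative to the control. The MCM2 to MCM7 proteins form a ring of 6 different subunits that is loaded onto replication origins as cells leave mitosis and unwinds DNA in S phase, together with CDC45 and the GINS complex. PCNA is loaded around DNA by replication factor C and tethers the polymerases. Transcription of most of these genes is driven by E2F factors as cells approach S phase, and a proliferating line expresses all of them.

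Most members with a promoter window hold a word of the E2F consensus, which their choice by symbol did not use. E2F control of most of these genes was known beforehand, so the matches are descriptive. The E2F consensus, searched as the 4 words TTTGGCGC, TTTGCCGC, TTTCGCGC and TTTCCCGC on both strands, was looked for in the RefSeq promoter windows (GRCh38.p14, 250 bases before to 50 after a start site). Such a word was present in at least 1 window of 5 of the 6 members with a window (MCM2, MCM3, MCM6, MCM7 and PCNA, with none in MCM10), against 1090 of 27305 gene symbols (3.99%). MCM7 had a word in 1 of its 3 windows and PCNA in 1 of its 2. MCM4 and MCM5 had no entry. To show how alike these stretches are, 1 match of each gene is printed, 5′ to 3′ on the gene's strand with the word in capitals. The words of both strands overlap in MCM2 and MCM6, where TTTCGCGC or TTTGGCGC runs on into gaaa. A match is a run of letters, and binding was not measured.
MCM2 (chr3:127598403-127598430, + strand): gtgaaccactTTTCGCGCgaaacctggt
MCM3 (chr6:52284729-52284756, - strand): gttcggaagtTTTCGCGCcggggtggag
MCM6 (chr2:135876516-135876543, - strand): attggtcaggTTTGGCGCgaaatctcca
MCM7 (chr7:100101389-100101416, - strand): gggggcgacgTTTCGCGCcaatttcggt
PCNA (chr20:5126664-5126691, - strand): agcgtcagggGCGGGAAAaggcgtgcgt

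The pre-IP libraries held 600244 to 1179369 counts and those of the IP 905926 to 2057647. Log2 CPM, a gene's counts scaled to its library's size, correlated across genes at r = 0.74 to 0.79 within pre-IP and 0.91 to 0.92 within the IP. Small structured RNAs took 67.9% ± 6.41 (SD, n = 3) of the counts in pre-IP and 34.5% ± 9.63 in the IP. Values are therefore given both as a share of all counts and after TMM scaling, which centres most genes near no change. Over the 8070 tested genes the median log2 fold change was 0.10 with TMM and 1.63 with library totals alone. Of the 6 HEK293T markers looked at, NEFL, NEFM, INA, LIN28B and VIM were counted in both groups and PAX2 had 9 counts in the IP and 0 in pre-IP. Of 14 markers of blood, liver, fibroblast, muscle and epidermis, 11 had no count in any library, and their summed level was 0 to 6.35 CPM in pre-IP and 3.31 to 6.80 CPM in the IP.

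As a share of all counts, every one of the 8 genes was higher in each IP library than in any pre-IP library. MCM2 to MCM7 together took 0.0465%, 0.0605% and 0.0542% of the counts in replicates 1, 4 and 7 of pre-IP and 0.192%, 0.210% and 0.265% in replicates 3, 6 and 9 of the IP. The mean share was 4.14-fold higher, 0.0537% ± 0.0070 (SD, n = 3) against 0.222% ± 0.0383, with no overlap of the groups (exact permutation test, 2-sided, p = 0.1, which is the lowest p that 3 libraries against 3 can give). The mean CPM by library totals was between 2.09-fold (PCNA) and 7.03-fold (MCM5) higher. Groups that do not overlap with the IP above are common on this scale, at 68.7% of tested genes, and protein-coding genes as a whole went from 30.9% ± 6.22 to 63.3% ± 9.29 of counts. Within the counts of protein-coding genes the share of MCM2 to MCM7 was 0.183% ± 0.0641 in pre-IP and 0.352% ± 0.0364 in the IP, again without overlap (exact permutation p = 0.1).

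**Figure D1:**
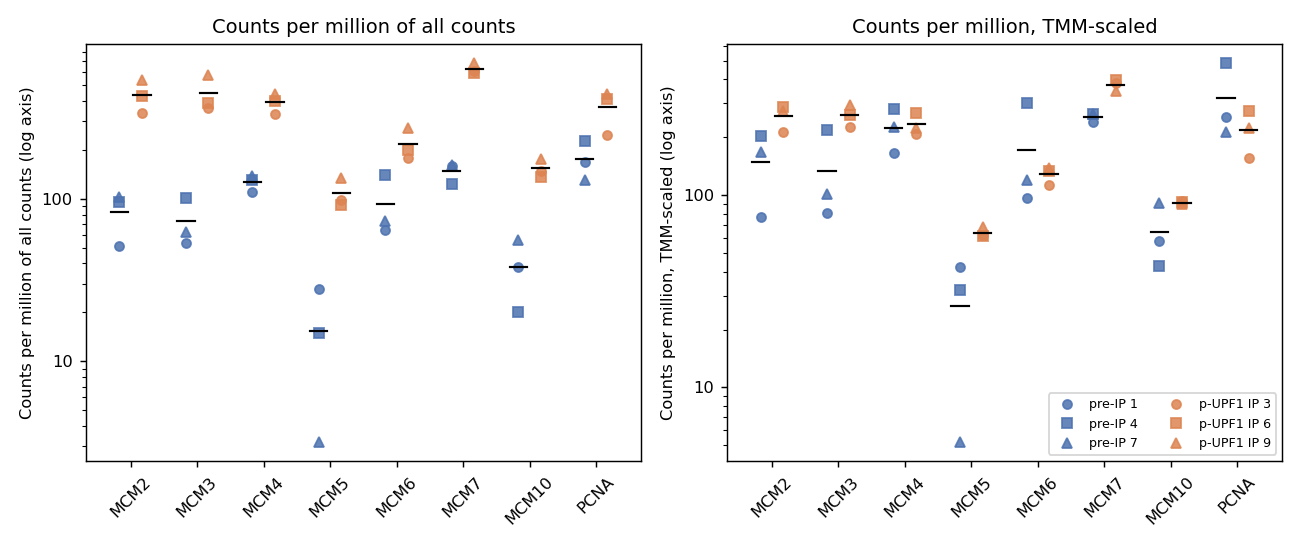
Levels of the 8 genes in each library, on log axes, as CPM of all counts (left) and as TMM-scaled CPM (right); points are libraries, with the replicate number in the legend, and bars are group means. On the left the IP points lie above the pre-IP points for all 8 genes, and on the right they do so for MCM2, MCM3, MCM5 and MCM7.

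Relative to other genes, MCM3 was the one member past the threshold. With TMM scaling 1 of the 8 was called higher and 0 lower (edgeR quasi-likelihood F-test, Benjamini-Hochberg at 0.05), where 8.81% of all tested genes were called higher, 10.9% lower and 19.7% in either direction. At an unadjusted p under 0.05, 3 members were higher and 0 lower, against 17.3% and 16.7% of all tested genes. DESeq2 called 0 of the 8 (10.2% of all genes higher) and limma-voom 2, MCM2 and MCM3 (8.07%). Without a filter on low counts 3 members were called higher (7.32% of all genes), and with the transcript-length trend removed 0 were (6.43%). With library totals alone all 8 were called higher, as were 60.4% of all tested genes. In TMM-scaled CPM the groups did not overlap, with the IP above, for 4 of the 8 against 21.9% of tested genes, or 39.7% counting both directions. The median log2 fold change of the 8 was 0.52, against 0.10 over all tested genes.

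MCM3, a helicase subunit that sits next to MCM5 in the ring, had 80.6, 218 and 102 TMM-scaled CPM in replicates 1, 4 and 7 of pre-IP and 228, 262 and 294 in replicates 3, 6 and 9 of the IP. All IP libraries were above all pre-IP libraries, although pre-IP replicate 4 came close to the lowest of them. MCM3 rose by 1.02 on the log2 scale (SE 0.35, 95% interval 0.28 to 1.76, adjusted p = 0.049 in edgeR). The call sat at the threshold and was lost when any 1 library other than pre-IP replicate 4 was left out, and the adjusted p reached 0.190 without pre-IP replicate 1. It was also lost with DESeq2 (adjusted p = 0.0573), with a stricter filter (0.0565) and with the transcript-length trend removed (0.0824).

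MCM2 and MCM5 had fold changes of like size that missed the threshold. MCM2, which carries a histone-binding tail, had 76.8, 204 and 168 TMM-scaled CPM in pre-IP and 212, 286 and 272 in the IP. The groups did not overlap, and the log2 fold change was 0.81 (SE 0.34, 95% interval 0.09 to 1.53, adjusted p = 0.103). It was past the threshold with limma-voom (0.99, adjusted p = 0.049), with no filter (0.0393), on library totals, and without pre-IP replicate 4 (1.13, adjusted p = 0.0409). MCM5 was the most thinly counted member, with only 33, 9 and 3 counts across pre-IP and 203, 168 and 122 across the IP. Its scaled levels of 42.2, 32.2 and 5.18 CPM lay below the 62.0, 61.2 and 68.2 CPM of the IP, and the log2 fold change was 1.26 (SE 0.48, 95% interval 0.26 to 2.26, adjusted p = 0.0714). It passed with no filter (1.43, adjusted p = 0.0114) and on library totals. The fold of MCM5 depends on single pre-IP libraries, at 2.06 without replicate 1 (adjusted p = 0.0201) and 0.76 without replicate 7 (adjusted p = 0.165).

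MCM7, MCM4 and MCM6 did not pass the test. MCM7 had the steadiest pre-IP levels, at 239, 265 and 264 TMM-scaled CPM, and 382, 397 and 347 in the IP. Its groups did not overlap, but the difference did not pass the test (log2 fold change 0.55, SE 0.29, 95% interval -0.07 to 1.17, adjusted p = 0.197). MCM4, which forms the catalytic core of the helicase with MCM6 and MCM7, had 165, 279 and 226 CPM in pre-IP and 209, 269 and 225 in the IP. The groups overlapped, and the log2 fold change was 0.08 (95% interval -0.55 to 0.71, adjusted p = 0.877). MCM6 had 97.2, 301 and 119 CPM in pre-IP and 113, 134 and 138 in the IP. After TMM scaling pre-IP replicate 4 stood far above the other 5 libraries for MCM6. By library totals it had 140 CPM, below the 179, 201 and 273 CPM of the IP. With TMM the log2 fold change was -0.37 with pre-IP replicate 4 (95% interval -1.15 to 0.40, adjusted p = 0.510) and 0.29 without it (adjusted p = 0.523).

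MCM10, an initiation factor outside the ring, had 57.6, 43.0 and 91.6 TMM-scaled CPM in pre-IP and 92.8, 91.7 and 89.5 in the IP. The IP libraries were nearly level with each other and with pre-IP replicate 7, and the log2 fold change was 0.48 (SE 0.32, 95% interval -0.20 to 1.16, adjusted p = 0.319). PCNA, the clamp, had 255, 487 and 214 CPM in pre-IP and 156, 275 and 224 in the IP. Its groups overlapped, and the log2 fold change was -0.53 (SE 0.35, 95% interval -1.27 to 0.21, adjusted p = 0.311). PCNA was closer to no change without pre-IP replicate 4, at -0.07. The signs of MCM6 and PCNA turn with library totals alone, where their log2 fold changes were 1.28 and 1.09, both under the median of all genes on that scale (1.63).

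**Figure D2:**
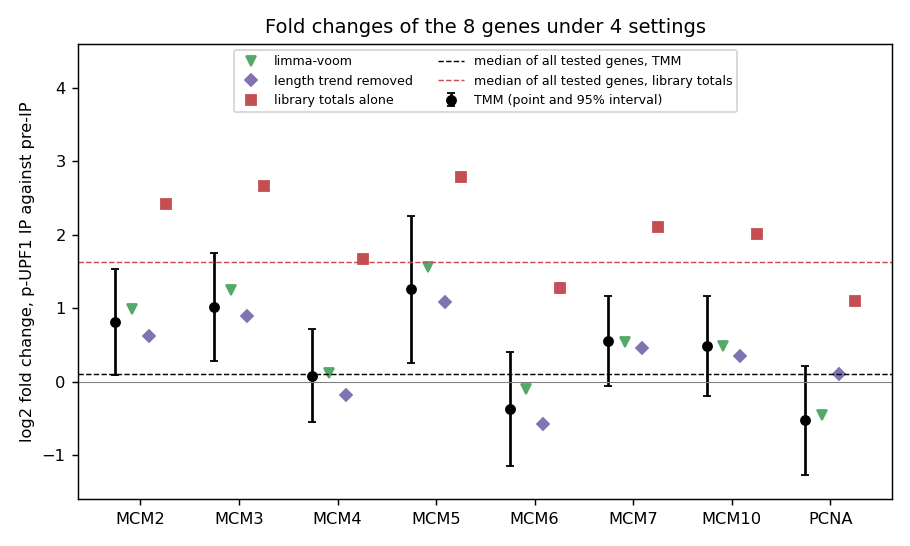
Log2 fold change of each gene, the IP against pre-IP, under 4 settings; the black points carry 95% intervals from the edgeR fit, and the dashed lines are the medians of all tested genes. Scaling by library totals lifts all 8 genes and the median of all genes together (1.63 against 0.10), and the order MCM5, MCM3, MCM2 at the top and PCNA or MCM6 at the bottom holds with TMM, limma-voom and library totals, while PCNA lies above MCM4 and MCM6 with the length trend removed.

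Ratios within a library do not depend on scaling. The shares of 3 of the 6 subunits in the helicase counts had groups that did not overlap. No such rate was computed for shares of other genes, while in TMM-scaled CPM 39.7% of tested genes had groups without overlap. The 6 shares of a library add up to the whole, so a higher share of 1 subunit lowers those of others. MCM3 made up 11.5%, 16.8% and 11.5% of the MCM2 to MCM7 counts in pre-IP and 18.9%, 18.6% and 21.9% in the IP, higher in each IP library. MCM4 had a lower share in each IP library, with 23.5%, 21.5% and 25.6% in pre-IP and 17.3%, 19.1% and 16.7% in the IP. Its own log2 fold change with TMM was 0.08, against a median of 0.10 over all tested genes. MCM6 was also lower in each IP library, with 13.9%, 23.1% and 13.5% against 9.35%, 9.54% and 10.3%. Each of these 3 shares had an exact permutation p = 0.1, the smallest possible, and 0.2 after Benjamini-Hochberg adjustment over the 6 subunits, so none passes a threshold of 0.05. MCM2 (15.2% ± 4.02 and 19.4% ± 1.55, SD, n = 3), MCM5 (3.03% ± 2.76 and 4.85% ± 0.44) and MCM7 (28.1% ± 7.03 and 28.6% ± 2.98) had groups that overlapped. The 6 proteins assemble in equal numbers, which RNA counts do not measure. The RNA fragments, not scaled for transcript length, were far from equal in every library, with MCM7 between 20.4% and 34.1% and MCM5 between 0.586% and 6.02%.

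**Figure D3:**
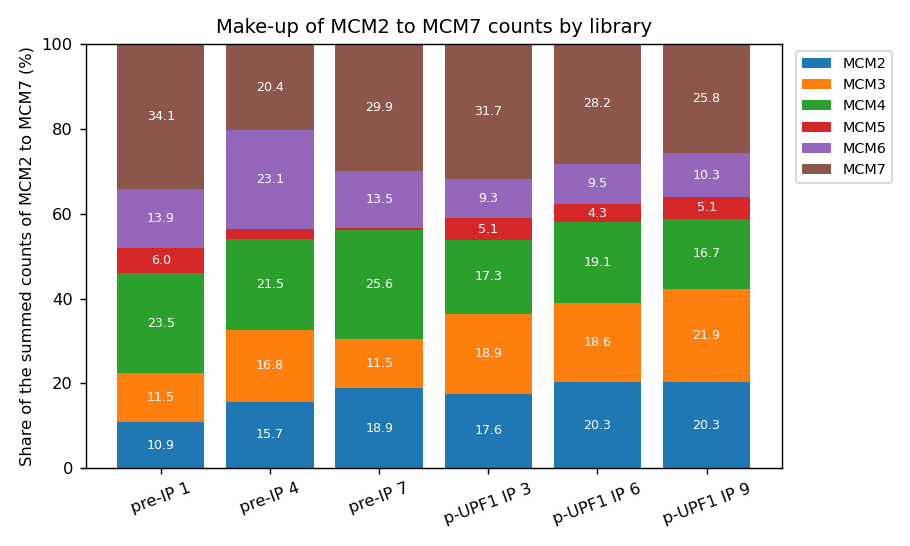
Share of each subunit gene in the summed counts of MCM2 to MCM7, 1 bar per library; shares over 3% are printed in the bars. MCM3 takes 18.6% to 21.9% in the IP libraries against 11.5% to 16.8% in pre-IP, and MCM6 9.35% to 10.3% against 13.5% to 23.1%.

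Per kilobase of transcript, PCNA and MCM7 were the highest of the 8 in both groups and MCM5 the lowest. In pre-IP the levels in TMM-scaled CPM per kilobase were 234 ± 108 (SD, n = 3) for PCNA, 86.6 ± 4.96 for MCM7 and 53.4 ± 13.7 for MCM4. MCM6 (46.1 ± 29.9), MCM3 (41.7 ± 23.1) and MCM2 (41.3 ± 18.1) followed and did not differ from MCM4 or from each other beyond their spread, with MCM10 at 20.3 ± 7.90 and MCM5 at 7.51 ± 5.42. In the IP the order was PCNA (161 ± 44.0), MCM7 (127 ± 8.71), MCM3 (81.4 ± 10.4), MCM2 (70.9 ± 10.9), MCM4 (56.0 ± 7.40), MCM6 (34.4 ± 3.67), MCM10 (28.9 ± 0.543) and MCM5 (18.1 ± 1.09). PCNA and MCM7 in the IP, like MCM3 and MCM2, lay within each other's spread.

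PCNA was lower against the helicase subunits in every IP library. The log2 ratio of PCNA to the mean of MCM2 to MCM7 was 1.34, 1.43 and 1.17 in pre-IP and -0.15, 0.45 and 0.18 in the IP. The groups were well apart, with a mean of 1.32 ± 0.13 (SD, n = 3) in pre-IP and 0.16 ± 0.30 in the IP, a difference of -1.15 (two-sided exact permutation p = 0.1, the smallest possible, adjusted p = 0.15 over 3 ratios). The difference stayed at -1.30 to -0.997 without each library in turn. For MCM10 the same ratio was -0.79, -2.01 and -0.05 in pre-IP and -0.90, -1.13 and -1.14 in the IP, and the groups overlapped (difference -0.10, exact permutation p = 0.9). In both ratios the mean is taken over log2 counts, so each subunit has equal weight. The thin MCM5 counts of pre-IP (33, 9 and 3) therefore lower that mean and raise the ratios there, most in replicate 7.

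The PCNA mRNA is also by far the shortest of the 8, and fold changes in these libraries went with length. In GENCODE 29 the transcript chosen for PCNA has 1359 nt, against 2957 nt (MCM7) to 4183 nt (MCM4) for the other 7. Across 7465 tested protein-coding genes the log2 fold change correlated with log2 transcript length at r = 0.35 (genes are not independent, and all points share the same 6 libraries). The 255 protein-coding genes within 10% of the PCNA length had a median log2 fold change of -0.46, with 5 called higher and 42 lower, and the 1550 genes within the range of the 7 MCM transcripts one of 0.20, with 116 higher and 81 lower. With the length trend removed the log2 fold change of PCNA was 0.10 (adjusted p = 0.856), and its difference from the mean of MCM2 to MCM7 went from -1.09 to -0.28. That trend was fitted to these same 6 libraries. Whether length accounts for the lower PCNA ratio was not tested. GENCODE 29 also places a snoRNA gene of the RF00568 family within the span of PCNA, on the same strand, and names 3 PCNA pseudogenes. How reads of such copies were assigned is not stated.

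**Figure D4:**
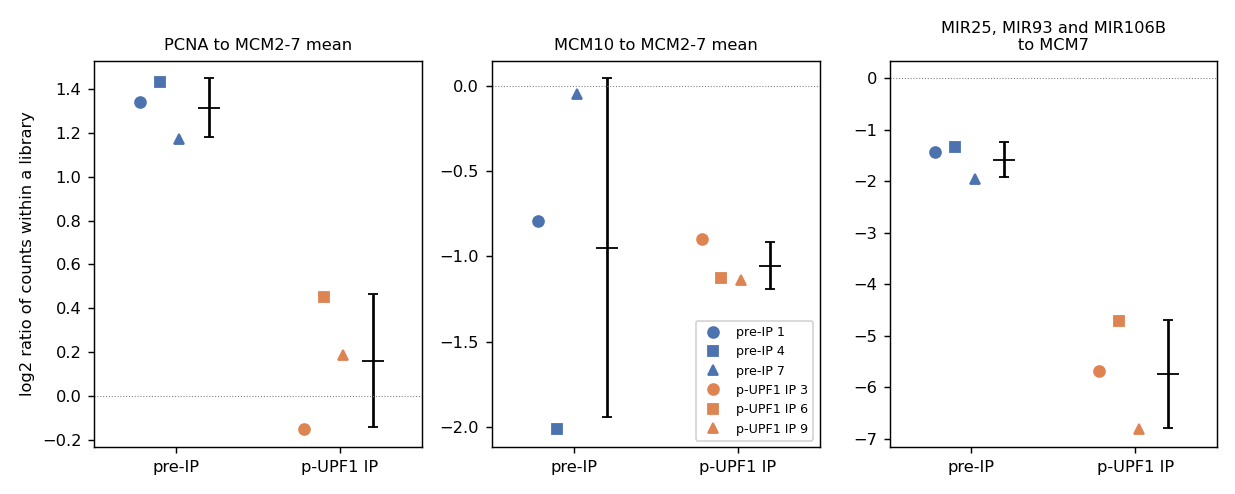
Log2 ratios of counts within each library: PCNA and MCM10 against the mean of MCM2 to MCM7, and the 3 microRNA genes inside MCM7 against MCM7; coloured points are libraries and black bars the mean with SD (n = 3). PCNA and the microRNA rows are lower in all IP libraries (differences of -1.15 and -4.16), while the MCM10 points overlap. Small structured RNAs as a class also took less of the counts in the IP (34.5% against 67.9%).

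MCM7 carries 3 microRNA genes in a single intron, MIR106B, MIR93 and MIR25, and the sum of their rows was lower in the IP while the share of their host was higher. Small structured RNAs as a class, microRNA rows included, also took a lower share of counts in the IP, and protein-coding genes as a class a higher one. To show what the rows stand for, a mature arm of each is printed from RefSeq (GRCh38.p14), 5′ to 3′ with the seed (bases 2 to 8) in capitals. MiR-106b-5p and miR-93-5p share the seed AAAGUGC of the miR-17 family, and miR-25-3p has another. The rows do not separate the arms or the precursor.
hsa-miR-106b-5p (chr7:100094043-100094063, - strand): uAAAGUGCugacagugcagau
hsa-miR-93-5p (chr7:100093815-100093837, - strand): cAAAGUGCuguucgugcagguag
hsa-miR-25-3p (chr7:100093571-100093592, - strand): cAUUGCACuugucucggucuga

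Counts of MIR106B were 49, 16 and 24 in pre-IP and 24, 31 and 2 in the IP, while MCM7 had 187, 74 and 153 and then 1252, 1090 and 620. MIR106B fell from a mean of 53.8 to 6.58 TMM-scaled CPM (SDs of 11.03 and 5.12, n = 3), or -2.96 on the log2 scale (SE 0.57, adjusted p = 0.0018), and also on library totals (-1.52, adjusted p = 0.0439). With the length trend removed it was at -0.30 (adjusted p = 0.750) and no longer passed. MIR93 went from 36 counts to 5 and MIR25 from 12 to 8, and both were too thinly counted to be tested. The log2 ratio of the 3 rows together to MCM7 was -1.43, -1.34 and -1.96 in pre-IP and -5.68, -4.72 and -6.82 in the IP. The difference of -4.16 had an exact permutation p = 0.1, the smallest possible, and an adjusted p = 0.15 over 3 ratios. It includes the shift between the classes, from 67.9% to 34.5% of counts for small structured RNAs and from 30.9% to 63.3% for protein-coding genes. Whether the MCM7 locus differs from that shift was not tested.

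Transcript annotation gave no member a junction-based NMD feature in its main form. In the transcript chosen for each gene, no exon junction followed the stop codon for any of the 8, and only 13 of 7465 tested protein-coding genes had one over 50 nt after it. The 3′ UTRs ran from 151 nt (MCM7) to 1382 nt (MCM4). GENCODE 29 lists transcripts of the nonsense-mediated decay type for MCM4 (5), MCM2 (2), MCM3, MCM5 and MCM7 (1 each), and 0 for MCM6, MCM10 and PCNA. The 4 members with the IP above pre-IP in all libraries after scaling (MCM2, MCM3, MCM5 and MCM7) were thus among the 5 with such a transcript, which was looked at after their values were seen and has no test. MCM4, the other of the 5, has the most such transcripts, and its log2 fold change was 0.08. Of the tested protein-coding genes 46.3% have such a transcript, with a median log2 fold change of 0.20 against 0.11 for the rest. Among those with one, 324 of 3459 were called higher and 246 lower, against 359 of 4006 higher and 342 lower among the rest. The counts are per gene and do not show which transcript a fragment came from. On the opposite strand MCM2 overlaps TPRA1 and MCM7 overlaps AP4M1, which had 25 and 0 counts over the pre-IP libraries and 66 and 19 over those of the IP.

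The 73 genes of the table in 6 lists of replication genes gave calls at about the background rate. Of 70 tested, 5 were higher and 7 lower in the IP, where 8.81% and 10.9% of all tested genes were called, and their median log2 fold change was 0.01 against 0.52 for the 8 members and 0.10 for all genes. With library totals alone 47 were higher and 0 lower, and with the length trend removed 2 were higher and 4 lower.

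The polymerases held the largest increases among the list genes called. Of 10 genes of the replicative polymerases and primase tested, 2 rose and 1 fell. The shares called among all tested genes were 8.81% higher and 10.9% lower. At an unadjusted p under 0.05, 4 of the 10 were higher and 1 lower, against 17.3% and 16.7% of all tested genes. DESeq2 and limma-voom each called 2 higher and 1 lower. POLE, the catalytic subunit of the leading-strand polymerase, rose from 41.2 ± 7.98 to a mean of 166 TMM-scaled CPM (SD 28.002, log2 fold change 2.04, SE 0.32, adjusted p = 0.000355). POLD1, the catalytic subunit of the lagging-strand polymerase, was counted 10 times over pre-IP and 343 times over the IP and rose by 2.89 (SE 0.56, adjusted p = 0.0019). Both were called in 17 of 17 alternatives. PRIM2, a primase subunit with pseudogene copies in the genome, fell by 2.34 (adjusted p = 0.0095), and it did not pass on library totals (adjusted p = 0.250) or when pre-IP replicate 7, IP replicate 3 or IP replicate 9 was left out (highest adjusted p = 0.0817).

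Among genes that load and switch on the helicase, few were called. Over all tested genes 8.81% were called higher and 10.9% lower. Of 13 genes of origin recognition and licensing, 1 rose and 0 fell, with 2 and 0 at an unadjusted p under 0.05 (17.3% and 16.7% of all tested genes), 1 and 0 with DESeq2 and 0 and 0 with limma-voom. CDT1, which brings the helicase to origins, rose by 1.22 on the log2 scale (adjusted p = 0.0310), and its call was lost without pre-IP replicate 7 or any 1 of the IP libraries (highest adjusted p = 0.133), with limma-voom (0.0794) and with the length trend removed (0.0655). ORC6, the most counted of the list, had 93.8 ± 8.69 and 132 ± 46.9 CPM (adjusted p = 0.276). The related helicase genes MCM8 and MCM9 had log2 fold changes of 0.26 and -0.42, and MCMBP, which binds the MCM proteins, -0.29, none past the threshold (these 3 were picked after their values were seen). Of 13 genes of helicase activation, 1 rose and 1 fell. At an unadjusted p under 0.05, 4 of them were higher and 2 lower. DESeq2 called 3 higher and 1 lower, and limma-voom 2 higher and 1 lower. TOPBP1, a scaffold of origin firing, rose by 1.30 (adjusted p = 0.0166). GINS1, a subunit of the GINS complex, fell by 2.47 (SE 0.34, adjusted p = 0.000109), from 112 ± 17.4 to 20.2 ± 4.47 CPM. The TOPBP1 call was lost when pre-IP replicate 1 (adjusted p = 0.0683) or IP replicate 3 (0.137) was left out and with the length trend removed (0.0814), and that of GINS1 with library totals alone (0.0715).

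The 3 lists around the clamp and the fork held 6 of the remaining calls, where 19.7% of all tested genes were called in either direction. Of 8 clamp loader and unloader genes tested 0 passed in edgeR, DESeq2 or limma-voom, with 0 higher and 1 lower at an unadjusted p under 0.05 (17.3% and 16.7% of all genes), and the log2 fold change of RFC1, the large loader subunit, was 0.68 (adjusted p = 0.225). Of 14 PCNA partners, 2 fell and 0 rose (2 fell and 1 rose with DESeq2 and with limma-voom). KIAA0101, which encodes a PCNA-binding factor, fell by 2.27 (adjusted p = 0.0020, or 0.225 with library totals alone), and RNASEH2B, a subunit of the nuclease that removes RNA from DNA, fell by 1.18 (adjusted p = 0.0359). The maintenance methyltransferase gene DNMT1 was at 141 ± 45.6 and 247 ± 17.5 CPM (adjusted p = 0.0585), and passed in 6 of 17 alternatives, DESeq2 (0.0361) and limma-voom (0.0421) among them. Of 12 genes of single-strand binding, fork protection and checkpoint, 3 fell and 1 rose. RPA3, the small subunit of replication protein A, fell by 3.48 (SE 0.78, adjusted p = 0.0049, or 0.0508 with library totals alone), CHEK1 fell by 1.24 (adjusted p = 0.0210) and TIPIN fell by 1.40 (adjusted p = 0.0487), while the checkpoint kinase gene ATR rose by 1.44 (adjusted p = 0.0437). RPA1, the large subunit of replication protein A, had 93.7 ± 35.1 and 97.4 ± 12.2 CPM (adjusted p = 0.853). The CHEK1 call was lost without pre-IP replicate 7 or IP replicate 3 or 9 (highest adjusted p = 0.114) and with no filter (0.0600). The RNASEH2B call was lost without pre-IP replicate 4 or 7 or IP replicate 3 or 6 (0.164), with no filter (0.0851) and with the length trend removed (0.165). The TIPIN call was lost whichever library was left out (0.183) and held in 4 of 16 alternatives. The ATR call was lost when any library but pre-IP replicate 1 was left out (0.229), with limma-voom (0.134), with the small structured RNAs left out (0.0508) and with the length trend removed (0.217). RNASEH2B, CHEK1 and TIPIN had positive log2 fold changes with library totals alone (0.42, 0.28 and 0.11).

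**Figure D5:**
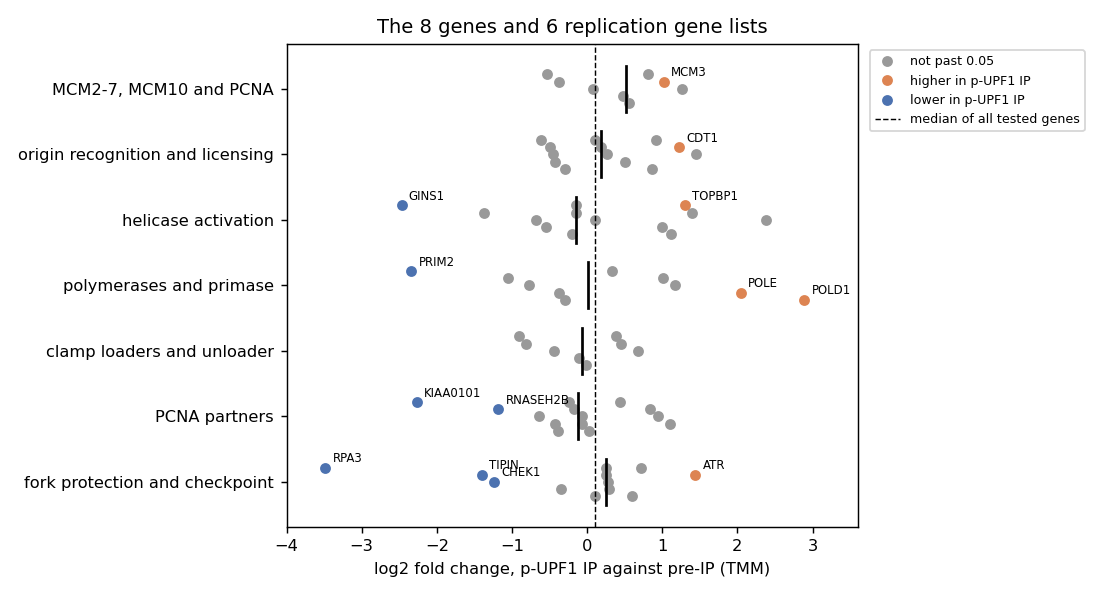
Log2 fold change (TMM, the IP against pre-IP) of the 8 genes and of each tested gene in the 6 replication lists; genes past an adjusted p of 0.05 are coloured and named, and black bars are list medians. The 8 genes sit between -0.53 and 1.26 with a median of 0.52, and the calls in the other lists run from RPA3 at -3.48 to POLD1 at 2.89.

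Among 4027 tested genes at or above the median level, those whose log2 CPM over the 6 libraries followed the summed MCM2 to MCM7 counts most closely included AEN, PGD, TRIM11 and HIRA (Pearson r = 0.98, 0.97, 0.97 and 0.96, n = 6 libraries). These values are descriptive, since all genes share the same libraries and 70 of the 4027 (1.74%) had an r over 0.9. Of the members, MCM3 and MCM2 followed the sum they are part of most closely (0.97 and 0.94). MCM10, which is not part of it, had an r of 0.16 and PCNA one of 0.19. HIRA, a histone chaperone gene, rose by 1.48 (adjusted p = 0.0445), a call that held in 8 of 17 alternatives and was lost when any library but pre-IP replicate 4 was left out (highest adjusted p = 0.163), with DESeq2 (0.0769), with a stricter filter (0.0516), with the small structured RNAs left out (0.0526) and with the length trend removed (0.117), and AEN, PGD and TRIM11 did not pass the test.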

How the data were processed

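RNA of 6 libraries was sequenced after rRNA removal and ligation of 33-nt adapters to both ends, with 20 PCR cycles and inserts over 20 bp, per the labels' protocols. The deposited table holds raw counts of reads per gene symbol, 1 column per library, as the authors made them. The submitters' processing notes name featureCounts (Subread 1.5.0p3), STAR 2.5.2b, cutadapt 1.15 and hg19. For annotation, strand and multiple matches the settings were not given in the sources used. No molecular identifiers are described, so repeated PCR reads cannot be told from separate molecules. Members, lists and tests were chosen with earlier results of these data known, and the subunit shares and the microRNA ratio, with their alternatives, were added after the count tables had been seen.

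Counts were tested over all genes with edgeR 4.0.16 in R 4.3.3 (filterByExpr, minimum count 10, TMM, quasi-likelihood F-test, Benjamini-Hochberg 0.05) after a check on simulated data. In that check 11.9% of planted 2-fold changes, 64.5% of 4-fold changes and 92.6% of 8-fold changes were called. In the check a 2-fold change was thus mostly missed. Its planted genes were drawn from tested genes of all levels, and it gave 100 calls in all, against 1591 in the data. Its rates are therefore not those of the 8 members, most of which are among the more highly counted genes. All 8 members passed the filter. SE is the log2 fold change over the square root of F. Shares and ratios (log2 of counts + 0.5) used two-sided exact permutation tests. Named genes were the members, each list gene past the threshold, the most counted gene per list and the genes most like the MCM2 to MCM7 sum, of which 1 is not reported here. Lengths and transcript types came from GENCODE 29 (GRCh38), matched by symbol, or by a single older symbol, for 7790 of 8070 tested genes. They were used without coordinates. Overlapping genes were found from the GENCODE 29 gene spans on GRCh38, which were not moved to the build of the counts. Alternatives were upper-quartile and RLE scaling, totals alone, no or a stricter filter (minimum 30), DESeq2 1.42.0, limma-voom (limma 3.58.1), the 10 most counted genes or the small structured RNAs left out, a loess length trend removed, each library left out, and a block by sets of label numbers.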

Additional observations from a re-analysis of the deposited data

How the results depend on the processing

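The groups share no replicate number, and the labels state no pairs. A replicate block by sets of consecutive label numbers (pre-IP 1 with IP 3, 4 with 6 and 7 with 9), chosen after seeing the data, gave 780 genes higher and 876 lower, 3 members higher (MCM2, MCM3 and MCM5) and 7 list genes higher and 7 lower. Deviations from the group means correlated across genes at r = 0.09, 0.17 and 0.10 within these sets, and each library correlated best with its own set, a hint from the data and not the design. With library totals alone 4874 genes were higher and 156 lower over all genes, 8 of the 8 members higher, and 47 list genes higher and 0 lower. Without a filter 1101 genes, 3 members and 10 list genes were higher and 4 list genes lower. A stricter filter gave 0 members higher and 3 list genes lower, DESeq2 0 members and 8 list genes higher, and limma-voom 2 members higher. With the length trend removed 514 genes were lower, 0 members and 2 list genes higher and 4 list genes lower. Without each library in turn, from 273 to 795 genes were higher and 518 to 833 lower, 0 to 2 members higher and 0 lower, and 2 to 8 list genes higher and 3 to 6 lower. Calls higher over all genes were fewest without a p-UPF1 IP library (273, 333 and 312 without replicate 3, 6 and 9). The cause was not tested.

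Signs turned for MCM4 (-0.012 with the stricter filter, -0.18 with the length trend removed, -0.10 to 0.30 without single libraries), MCM6 (1.28 with library totals, -0.66 to 0.29 without single libraries), PCNA (1.09 with library totals, 0.10 with the length trend removed) and RPA1 (-0.18 with the length trend removed, -0.12 to 0.44 without single libraries). With library totals RNASEH2B (0.42), CHEK1 (0.28) and TIPIN (0.11) turned too. The MCM10 ratio ran from -0.64 to 0.35 without single libraries. The change in the MCM7 share was -0.068 percentage points when computed from counts per kilobase and -3.44 to 3.43 without single libraries, against 0.43. The shares of MCM2 to MCM6, the summed share, the PCNA ratio and the microRNA ratio kept their signs in all alternatives run. MCM5 (45 counts in pre-IP) and the microRNA rows are limited by depth.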
